A study of Mus musculus with 6 samples.

Results

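The genes described here are the cytosolic chaperones of mouse PAM212 cells together with their J-protein partners and the chaperonin subunits. They were taken by symbol from the count table: every symbol that begins with Hsp, with Dnaja, Dnajb, Dnajc or Cct and a number, or that is Tcp1, with Hspa5, Hsp90b1, Dnajb9 and Hspg2 left out. That gave 82 of 21936 listed genes. The choice by symbol reaches beyond the cytosol, since 22 of the 82 carry the deposited annotation term for the mitochondrion and 11 the term for the endoplasmic reticulum (ER). Of the 82 genes, 67 had enough counts to be tested.

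PAM212 is labelled as a mouse keratinocyte line, although the series' design line speaks of melanocytes, and polyadenylated RNA was sequenced from 2 groups of 3 libraries. In the overexpression group (titles miR28) the cells were infected with a lentivirus that carries the mouse miR-28-3p gene. The control group (titles NC) is labelled as not treated, and no source used here says whether these cells received an empty virus. All libraries share the cell line and its culture in DMEM with 10% FBS, and no label tells whether replicates came from separate dishes. P-values therefore measure the spread between these samples, which may be technical.

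Chaperones bind unfolded stretches of other proteins and use ATP to release them for folding. HSP70 proteins are loaded by J-proteins, which speed up ATP cleavage, and are reset by nucleotide exchange factors such as the HSP110 proteins. Clients then pass to HSP90, which matures kinases and receptors, or to the TCP1 ring complex, which folds actin and tubulin. Heat shock factor 1, encoded by Hsf1, binds repeated GAA units in the promoters of many of these genes under stress. Epidermal keratinocytes contain much HSP27, called HSP25 in mouse and encoded by Hspb1.

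The sequences printed here are the overexpressed microRNA, its possible sites in the members, and promoters of members with heat shock factor units. Whether the sites or the units act in these cells was not tested. The mature microRNA, encoded at chr16:24827908-24827929 (plus strand, GRCm38.p6, RefSeq), is shown with its seed, bases 2 to 8, in capitals.
mmu-miR-28a-3p: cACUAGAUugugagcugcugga
The 7 bases that pair with this seed, ATCTAGT, were searched for in the longest annotated 3' UTR of each gene. They were found in 2 of the 66 tested members that have such a UTR (3.03%) and in 785 of all 11679 tested genes that do (6.72%). The sites in Dnajb14 (chromosome 3) and Hsp90ab1 (chromosome 17) are shown from GENCODE release M21 transcripts with the pairing bases in capitals.
Dnajb14 site: tggtattagttATCTAGTcatctctaagt
Hsp90ab1 site: ctactcggcctATCTAGTtgcagagaaag
A site is a match of letters and no evidence of binding. Dnajb14, a J-protein of the ER membrane, had 37.3, 38.9 and 40.3 CPM with overexpression and 31.7, 25.9 and 29.7 CPM in controls, and rose 1.33-fold. Hsp90ab1 is described with the HSP90 genes.

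RefSeq promoters of 300 bases were at hand for 66 members, of which 53 were tested. Each holds 250 bases before a listed start of the gene and 50 after it. No promoter was at hand for Hsp90aa1, Hsp90ab1, Hspa8 and Cct4, among others, so these genes were not searched. The letters GAANNTTC, which read the same on both strands, stood in a promoter of 12 of the 53 (22.6%), against 6.72% of the 9437 tested genes with a promoter. The longer run GAANNTTCNNGAA or its reverse complement TTCNNGAANNTTC, which contains the shorter one, stood in 4 of the 53 (7.55%), against 0.530%. Those 4 are Hspd1, Hspe1, Hsph1 and Dnajb6. Over all 32851 promoters of this length, 7.86% held the short run and 0.603% the long run. The promoters of Hspd1, Hsph1 and Dnajb6 are shown because they hold the long run, and those of Dnaja4 and Hspb1 because only they, among the members, hold the short run at 2 places. Dnaja4 was called higher and Hspb1 lower. Hspd1 and Dnaja4 each have 2 listed windows, of which only the window with a match is shown. Hsph1 and Dnajb6 each have 2 overlapping windows that hold the same match, and the first is shown. Capitals mark the GAA and TTC units of the matches (GRCm38.p6, gene strand, 5' to 3').
Hspd1, chr1:55087883-55088182, minus strand: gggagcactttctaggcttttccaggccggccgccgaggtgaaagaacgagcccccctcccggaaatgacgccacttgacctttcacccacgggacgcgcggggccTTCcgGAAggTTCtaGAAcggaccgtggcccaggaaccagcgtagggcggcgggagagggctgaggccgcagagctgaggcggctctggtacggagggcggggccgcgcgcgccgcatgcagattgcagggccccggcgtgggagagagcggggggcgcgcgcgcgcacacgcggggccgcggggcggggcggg
Hsph1, chr5:149636266-149636565, minus strand: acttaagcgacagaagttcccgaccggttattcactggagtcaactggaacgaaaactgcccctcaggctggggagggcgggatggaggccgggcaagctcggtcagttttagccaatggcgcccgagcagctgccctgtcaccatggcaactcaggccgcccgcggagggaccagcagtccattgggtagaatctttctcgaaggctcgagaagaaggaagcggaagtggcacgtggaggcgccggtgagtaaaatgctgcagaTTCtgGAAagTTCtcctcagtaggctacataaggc
Dnajb6, chr5:29735648-29735947, plus strand: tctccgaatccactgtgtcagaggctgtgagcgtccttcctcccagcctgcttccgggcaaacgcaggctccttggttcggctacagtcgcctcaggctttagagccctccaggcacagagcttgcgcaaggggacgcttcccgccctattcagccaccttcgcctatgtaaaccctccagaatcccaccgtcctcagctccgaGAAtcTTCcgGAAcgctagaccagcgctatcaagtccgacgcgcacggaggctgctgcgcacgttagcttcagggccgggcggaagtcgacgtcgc
Dnaja4, chr9:54699309-54699608, plus strand: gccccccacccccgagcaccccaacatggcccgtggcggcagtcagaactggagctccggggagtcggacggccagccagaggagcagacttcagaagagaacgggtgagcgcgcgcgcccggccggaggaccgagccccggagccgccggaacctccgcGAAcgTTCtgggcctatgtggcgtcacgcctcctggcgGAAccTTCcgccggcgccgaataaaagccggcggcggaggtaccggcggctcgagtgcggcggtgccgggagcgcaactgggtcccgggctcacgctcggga
Hspb1, chr5:135887669-135887968, plus strand: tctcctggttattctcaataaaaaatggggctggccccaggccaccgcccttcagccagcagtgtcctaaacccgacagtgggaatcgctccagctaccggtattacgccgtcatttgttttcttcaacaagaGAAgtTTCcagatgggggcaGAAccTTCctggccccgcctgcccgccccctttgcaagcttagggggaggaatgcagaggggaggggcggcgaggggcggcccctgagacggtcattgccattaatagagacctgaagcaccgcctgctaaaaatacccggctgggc
Hspd1 and Hspe1 lie head to head on chromosome 1, and the promoter window of Hspe1 (chromosome 1, 55087898 to 55088197, plus strand) covers most of the same bases, so that the same 4 units belong to both windows. The 12 tested genes with the short run were called higher in 9 cases and lower in 2, Hspb1 and Hspb6, and Cct2 was not called. Hspd1 and Hspe1 both count among the 9 through the same units. Of all tested members 58.2% were called higher and 28.4% lower, and of all tested genes 42.1% and 43.9%. The median log2 fold change of the 12 was 0.36, and that of the 41 tested members without the short run 0.23. A link between the run and the direction was not tested.

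Library totals lay between 14309898 and 16383374 counts, and 11809 genes were tested. Levels are CPM, counts divided by the library size after TMM scaling, or, where genes are compared with each other, the deposited FPKM, which divide by gene length and library total. Of 10 keratinocyte markers 8 averaged at least 1 CPM, but Krt5, a defining keratin of basal keratinocytes, was listed at 0 counts in all 6 libraries, and the others differed in direction. Krt15 had 0 counts in each overexpression library and 343, 310 and 352 counts in the controls. Dsg3 had 3, 3 and 7 counts with overexpression and 54, 38 and 39 in controls, and Trp63 had 0, 5 and 0 with overexpression and 14, 17 and 22 in controls. Itgb4 was lower with overexpression too, at 1955, 2092 and 2296 counts against 2999, 3051 and 3180 in controls. The sum of the 10 markers, carried by Cdh1, Itga6, Dsp and Itgb4, was 1322 to 1357 CPM with overexpression and 945 to 960.1 CPM in controls. The 8 melanocyte markers summed to 7.32 to 8.29 CPM with overexpression and 8.04 to 9.78 CPM in controls, with Tyr at 0. Mitf makes up most of that sum, while Tyrp1 had 7, 18 and 15 counts and Dct 10, 8 and 13 counts with overexpression and both had 0 in all 3 controls. The 7 fibroblast markers, with Lum at 0, summed to 16.2 to 17.1 CPM with overexpression and 43.3 to 52.0 CPM in controls. The 5 immune markers, with Cd3e at 0, summed to 4.86 to 6.80 CPM with overexpression and 18.5 to 21.6 CPM in controls. The 3 endothelial markers, with Kdr at 0, summed to 0.198 to 0.568 CPM with overexpression and 0.0628 to 0.254 CPM in controls. The part of these shifts in the results was not tested, and in bulk RNA fewer cells of a type and less RNA per cell cannot be told apart.

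Most chaperone genes differed between the groups, as did 86.0% of all tested genes. More of the chaperone genes went upward than downward. Of the 67 tested, 39 rose and 19 fell with overexpression and 9 were not called (edgeR quasi-likelihood test, adjusted p under 0.05 over all genes tested). These are 58.2% and 28.4% of the tested members, while 42.1% of all tested genes were called higher and 43.9% lower. The median log2 fold change was 0.32 for the members and -0.03 for all tested genes. Changes of at least 2-fold were called upward in 10 members (14.9%; 14.8% of all tested genes) and downward in 7 (10.4%; 21.0% of all tested genes), so the upward share of large changes lay at the background. The same count of large rises was 6 with upper quartile scaling, 5 on log2(FPKM + 1) and 6 on log2(FPKM + 0.1), against 10.2%, 8.65% and 12.0% of all tested genes, and that of large falls was 4 on log2(FPKM + 1), against 13.9%. Tested against a minimum of 1.5-fold, 14 members were higher and 9 lower, against 23.4% and 27.0% of all tested genes. In 39 members every overexpression library stood above every control library and in 18 below, which is 58.2% and 26.9%, against 42.2% and 43.8% of all tested genes. The median size of a member's change was 0.54 on the log2 scale, against 0.72 for all tested genes.

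With upper quartile scaling, which lowered the median of all genes to -0.26, the calls were 33 higher and 26 lower, against 33.5% and 53.2% of all genes. The difference between the median of the members and that of all genes was 0.35 in both scalings. A change of scaling moves all genes by nearly the same amount, so it could not alter this difference.

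**Figure D1:**
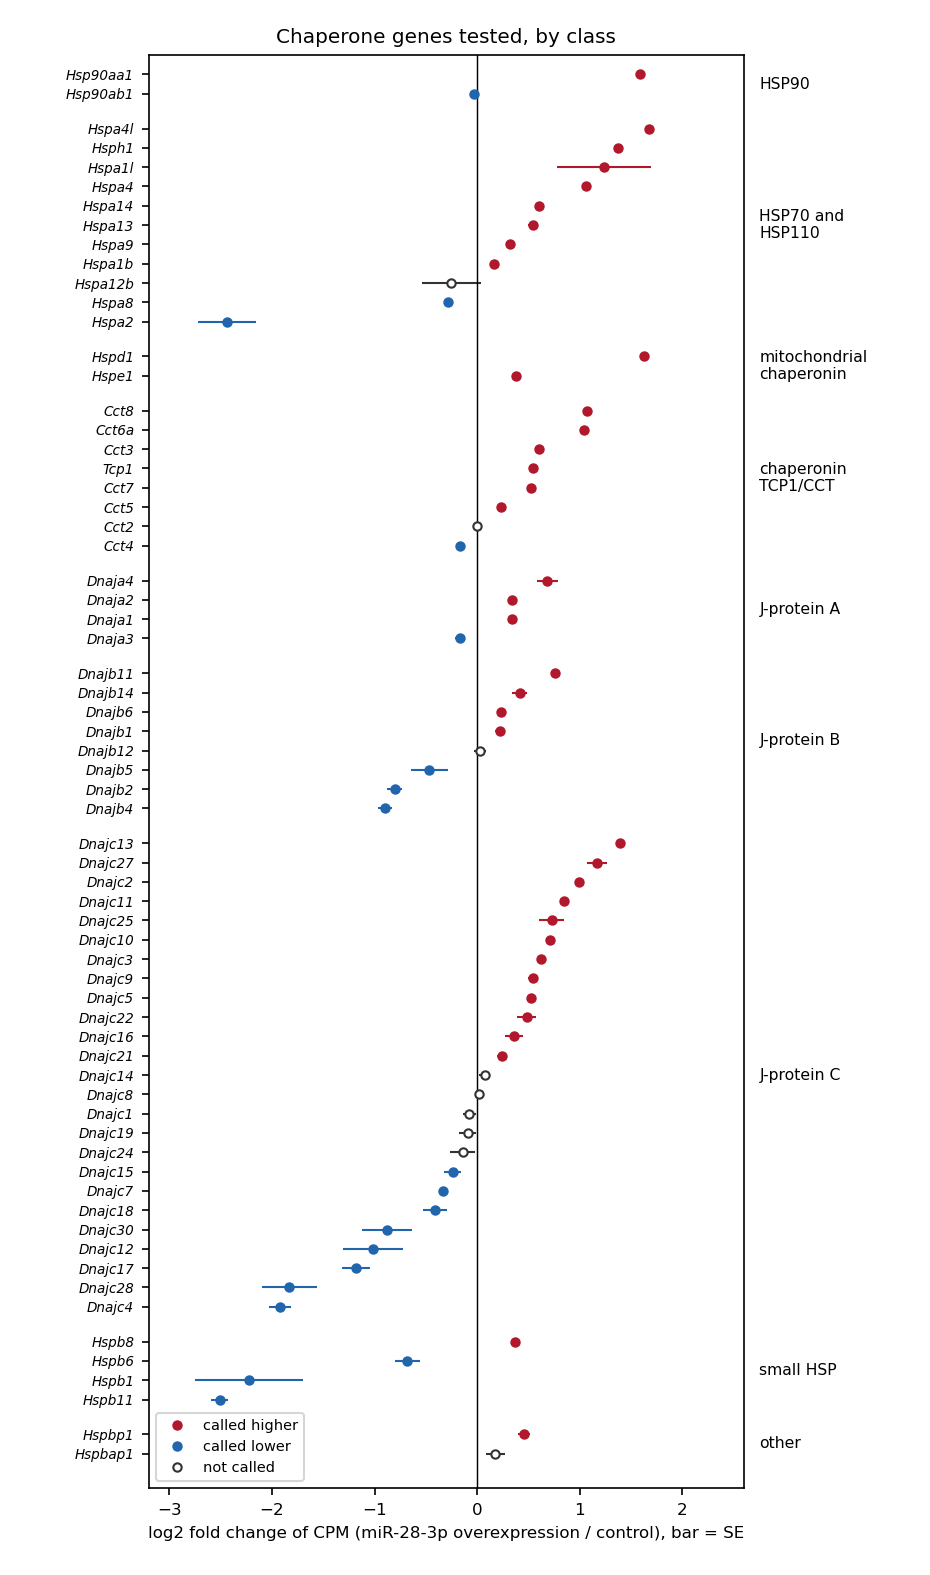
Log2 fold change of CPM, miR-28-3p overexpression over control, for 66 of the 67 tested chaperone genes, sorted within their classes. Points are edgeR estimates from 3 against 3 libraries, bars their SE, filled red points called higher, filled blue points called lower and open points not called. Hspa4l, Hspd1 and Hsp90aa1 lie farthest to the right and Hspb11 and Hspa2 farthest to the left.

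Together the 82 genes took 2.15 ± 0.00615% of a library's counts with overexpression and 1.8 ± 0.0103% in controls (SD, n = 3 each). Hsp90ab1 was the most abundant per length in both groups. Its share of the library's counts was 0.52% with overexpression and 0.568% in controls. The order below it differed between the groups. By mean FPKM, Hsp90aa1 (561), Hspd1 (503) and Hspa8 (502) followed with overexpression. In controls the next were Hspa8 (653), Cct2 (329.6) and Cct5 (253), while Hsp90aa1 (199) and Hspd1 (173) stood lower. Hspd1 and Hspa8 with overexpression do not differ beyond their spread, at 502, 496 and 510.3 and 497, 512 and 497 FPKM in the 3 libraries.

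**Figure D2:**
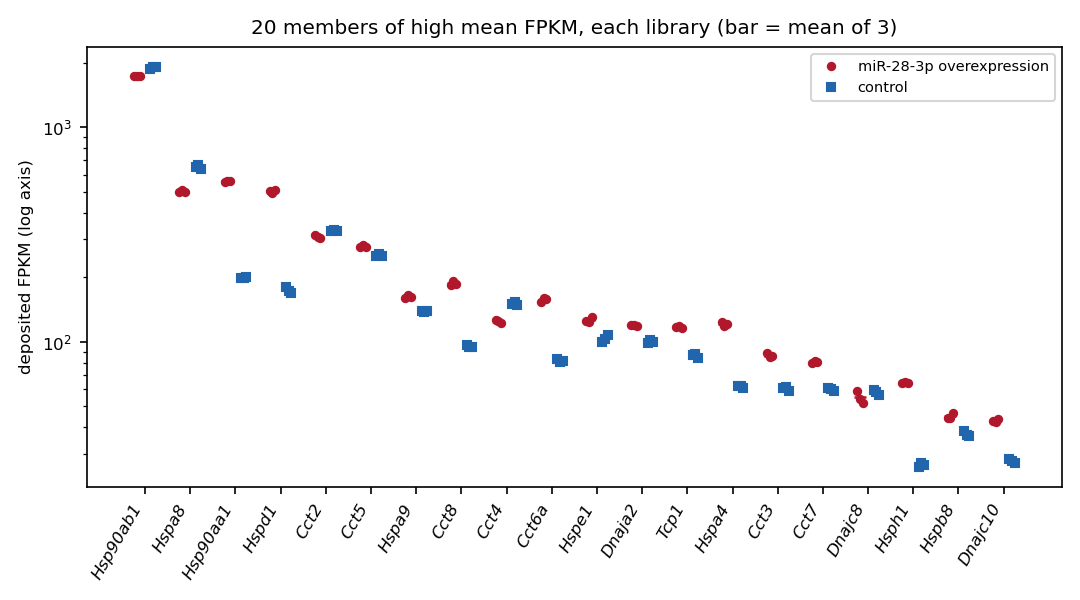
Deposited FPKM on a log axis of 20 chaperone genes of high mean level, in each of the 3 miR-28-3p overexpression libraries (circles) and 3 control libraries (squares), with a bar at the mean of each group. Hsp90aa1, Hspd1, Hspa4 and Hsph1 show wide gaps upward, and on this scale Hsp90ab1, Hspa8, Cct2 and Cct4 lie lower with overexpression.

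The HSP90 genes did not move together. Hsp90aa1 (ENSMUSG00000021270, chromosome 12, 110690605 to 110702728), the stress-inducible alpha form, had 2261, 2286 and 2286 CPM in the overexpression libraries, against 753, 758 and 761 CPM in the control libraries. All overexpression libraries were high with no overlap, a log2 fold change of 1.59 ± 0.02 (SE, n = 3 against 3; edgeR adjusted p = 1.61e-58). Hsp90ab1 (ENSMUSG00000023944, chromosome 17, 45567775 to 45573271), the constitutive beta form, had 5367, 5366 and 5373 CPM in the overexpression libraries, against 5421, 5532 and 5541 CPM in the control libraries. Its log2 fold change of -0.03 ± 0.02 passed the threshold narrowly (edgeR adjusted p = 0.0424). That call was lost with RLE scaling (edgeR adjusted p = 0.0774), in DESeq2 (adjusted p = 0.118), without a filter (edgeR adjusted p = 0.461) and when any library but control replicate 1 was left out (edgeR adjusted p = 0.0689 to 0.195). The direction turned to 0.41 once the trend with gene length was removed. The ratio of Hsp90aa1 to Hsp90ab1 within a library, in FPKM, was 0.321, 0.325 and 0.325 in the overexpression libraries, against 0.106, 0.104 and 0.105 in the control libraries.

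Among HSP70 and HSP110 genes 8 of 11 tested rose (72.7%; 42.1% of all tested genes) and 2 fell (18.2%; 43.9%). All 3 nucleotide exchange factors of the HSP110 type were at least 2-fold higher, as were 14.8% of all tested genes. Hspa4l (ENSMUSG00000025757, chromosome 3, 40745382 to 40796103) had 307, 294 and 302 CPM in the overexpression libraries, against 92.2, 95 and 96.2 CPM in the control libraries, a log2 fold change of 1.67 ± 0.03 (SE; edgeR adjusted p = 2.89e-48). Hsph1 (ENSMUSG00000029657, chromosome 5, 149614287 to 149636376), whose promoter is shown above, had 482, 489 and 482 CPM in the overexpression libraries, against 183, 191 and 187 CPM in the control libraries. Hspa4 (ENSMUSG00000020361, chromosome 11, 53259814 to 53300457) had 704, 679 and 695 CPM in the overexpression libraries, against 334, 333 and 328 CPM in the control libraries. In all 3 every overexpression library stood above every control library, as in 42.2% of all tested genes. Hsph1 rose 2.59-fold and Hspa4 2.09-fold (edgeR adjusted p = 1.2e-48 and 5.04e-45).

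The HSP70 genes Hspa8 and Hspa1b differed less than the 3 HSP110 genes. The low Hspa2 and Hspa1l, described below, had log2 fold changes of -2.44 and 1.24. Hspa8 (ENSMUSG00000015656, chromosome 9, 40800984 to 40810087), the constitutive cytosolic HSP70, had 2203, 2275 and 2213 CPM in the overexpression libraries, against 2705, 2782 and 2671 CPM in the control libraries. It was lower in each overexpression library, with a log2 fold change of -0.29 ± 0.02 (SE; edgeR adjusted p = 2e-21). Hspa1b, the heat-inducible HSP70, had 94.9, 97.9 and 99 CPM with overexpression and 85.1, 89.2 and 85.6 CPM in controls. Its change of 0.17 on the log2 scale (edgeR adjusted p = 0.000377) turned to -0.06, without a call, under upper quartile scaling. Hspa1a, its near-identical neighbour on chromosome 17, had 0, 3 and 4 counts with overexpression and 1, 4 and 1 in controls. No source used here says how reads were shared between the pair, so the level of each is uncertain. The summed FPKM of Hspa4, Hspa4l and Hsph1 over that of Hspa8 and Hspa1b was 0.404, 0.383 and 0.397 in the overexpression libraries, against 0.142, 0.14 and 0.143 in the control libraries.

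Hspa2, an HSP70 best known from male germ cells, showed the largest fall of the class, with 1.23, 0.66 and 0.695 CPM in the overexpression libraries, against 4.52, 4.61 and 4.76 CPM in the control libraries (log2 fold change -2.44 ± 0.28, edgeR adjusted p = 7.66e-12). Hspa9, the mitochondrial HSP70, rose 1.25-fold to 724 ± 9.3 CPM with overexpression and 579.6 ± 2.39 CPM in controls (SD, n = 3 each). Hspa13, found in the ER lumen, and Hspa14, which works with a J-protein at the ribosome, rose 1.46-fold and 1.52-fold. The J-protein partner of Hspa14 is encoded by Dnajc2, which rose 1.99-fold, with 161, 172 and 181 CPM with overexpression and 84.7, 87.5 and 85.9 CPM in controls. Hspa1l was low, with 14, 15 and 19 counts with overexpression and 9, 8 and 4 in controls (edgeR adjusted p = 0.0111), and 71.9% of its exon bases also lie in an antisense gene. Hspa12b was not called.

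**Figure D3:**
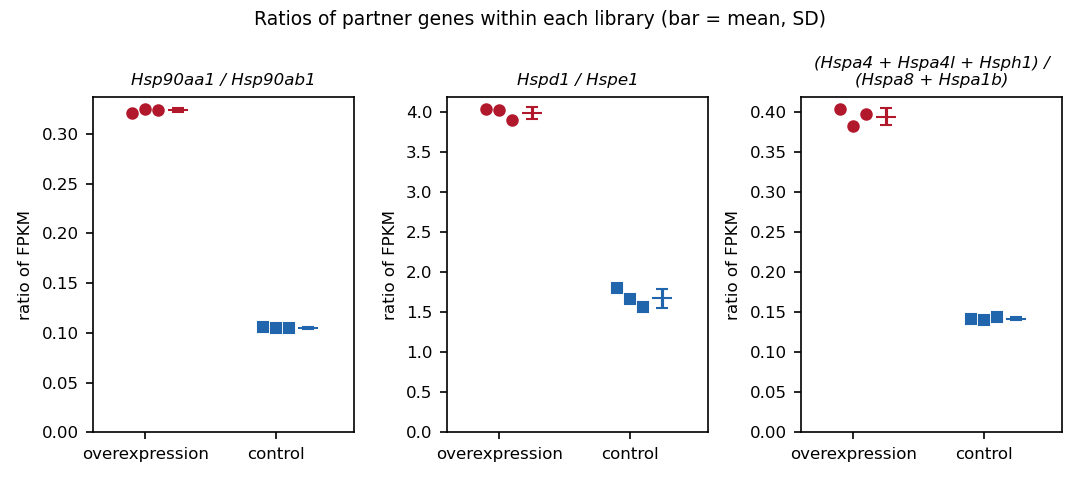
Ratio of deposited FPKM within each library for Hsp90aa1 over Hsp90ab1, Hspd1 over Hspe1, and the HSP110 genes Hspa4, Hspa4l and Hsph1 over the HSP70 genes Hspa8 and Hspa1b. Points are the 3 overexpression libraries (circles) and 3 control libraries (squares), bars the mean with SD. All 3 ratios were higher in every overexpression library than in any control library.

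The mitochondrial chaperonin genes Hspd1 and Hspe1 rose, but unequally. Hspd1 (ENSMUSG00000025980, chromosome 1, 55077835 to 55088243), which encodes the HSP60 ring, had 1369, 1353 and 1395 CPM in the overexpression libraries, against 458, 439.6 and 433 CPM in the control libraries. Its log2 fold change was 1.63 ± 0.02 (SE; edgeR adjusted p = 5.94e-56). Hspe1 (ENSMUSG00000073676, chromosome 1, 55088132 to 55091307), which encodes the HSP10 lid, had 189.6, 188 and 199.7 CPM in the overexpression libraries, against 142, 148 and 154 CPM in the control libraries. That is a log2 fold change of 0.38 ± 0.03 (edgeR adjusted p = 1.48e-15). The annotated span of Hspe1 begins in the stretch of chromosome 1 printed above. That of Hspd1, on the minus strand, begins outside it, at 55088243, and the printed window belongs to another listed start of Hspd1. The annotated spans of the genes overlap, and 7.60% of the exon bases of Hspe1 also lie in Hspd1. The ratio of Hspd1 to Hspe1 in FPKM was 4.03, 4.02 and 3.9 in the overexpression libraries, against 1.8, 1.66 and 1.57 in the control libraries. Hspe1 is 1474 bases long and Hspd1 2642, and with the length trend removed their log2 fold changes were 1.10 and 2.15. Hspe1 was picked for description after its values were seen.

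Within a library, 6 such ratios were computed, among them Hspa8 to Hspa1b, Hsp90aa1 to Hspa8 and Dnaja1 to Hspa8. In each the groups did not overlap, and each gave an exact two-sided permutation p of 0.1 (also 0.1 adjusted over the 6), the smallest that 3 against 3 can give. The ratio of Hsp90aa1 to Hspa8 was 1.12, 1.1 and 1.13 in the overexpression libraries, against 0.305, 0.298 and 0.312 in the control libraries. The ratio of Dnaja1 to Hspa8 was 0.0665, 0.0631 and 0.0687 in the overexpression libraries, against 0.0429, 0.0428 and 0.0425 in the control libraries, and that of Hspa8 to Hspa1b 15.1, 15.1 and 14.6 in the overexpression libraries, against 20.7, 20.3 and 20.3 in the control libraries.

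The TCP1 ring complex holds 8 different subunits in equal number, and their genes changed by different amounts. Of the 8 tested, 6 rose (75.0%; 42.1% of all tested genes), Cct4 fell and Cct2 was not called. With upper quartile scaling 5 rose and 2 fell, against 33.5% and 53.2% of all tested genes. Cct8 (theta subunit, ENSMUSG00000025613, chromosome 16, 87483326 to 87495873) had 586, 613 and 595 CPM in the overexpression libraries, against 289, 282 and 284 CPM in the control libraries, a log2 fold change of 1.07 ± 0.02 (SE; edgeR adjusted p = 3.14e-44). Cct6a (zeta subunit, ENSMUSG00000029447, chromosome 5, 129786998 to 129846371) had 574, 598 and 593 CPM in the overexpression libraries, against 289, 282 and 287 CPM in the control libraries. In both every overexpression library stood above the controls, and the other subunit genes rose less. Cct3, Tcp1 and Cct7 rose 1.52-fold, 1.45-fold and 1.43-fold, and Cct5 1.17-fold, with 790.3, 804 and 789.5 CPM with overexpression and 670.2, 689.5 and 670.2 CPM in controls. Cct5 was not called with upper quartile scaling (edgeR adjusted p = 0.952).

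Cct2 (beta subunit, ENSMUSG00000034024, chromosome 10, 117051001 to 117063814) had 831, 814 and 803 CPM in the overexpression libraries, against 814, 821 and 813 CPM in the control libraries, and the groups overlapped (edgeR adjusted p = 0.999). Its place depends on the scaling, since it was called lower at -0.23 on the log2 scale with upper quartile scaling and higher at 0.54 with the length trend removed. Cct4 (delta subunit, ENSMUSG00000007739, chromosome 11, 22990519 to 23003780) had 548, 544 and 534 CPM in the overexpression libraries, against 606, 621 and 605 CPM in the control libraries, a log2 fold change of -0.17 ± 0.02 (edgeR adjusted p = 7.03e-10), which turned to 0.05 with the length trend removed. In FPKM the most and the least abundant subunit genes were Cct2 and Cct7 in all 6 libraries. The highest stood 3.95, 3.79 and 3.77 times above the lowest with overexpression, against 5.43, 5.51 and 5.56 times in controls. Of the summed FPKM of the 8 genes Cct2 took 23 ± 0.387% with overexpression and 29.5 ± 0.119% in controls (SD, n = 3 each), Cct4 9.31 ± 0.0946% with overexpression and 13.4 ± 0.0954% in controls, Cct8 14 ± 0.256% with overexpression and 8.55 ± 0.148% in controls and Cct6a 11.7 ± 0.247% with overexpression and 7.32 ± 0.148% in controls. These shares do not depend on the scaling of the library. Cct6b, a copy of Cct6a known from testis, was too low to test, with 1, 0 and 2 counts with overexpression and 10, 5 and 12 in controls, and Cct8l1 had 1 count in all libraries together.

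**Figure D4:**
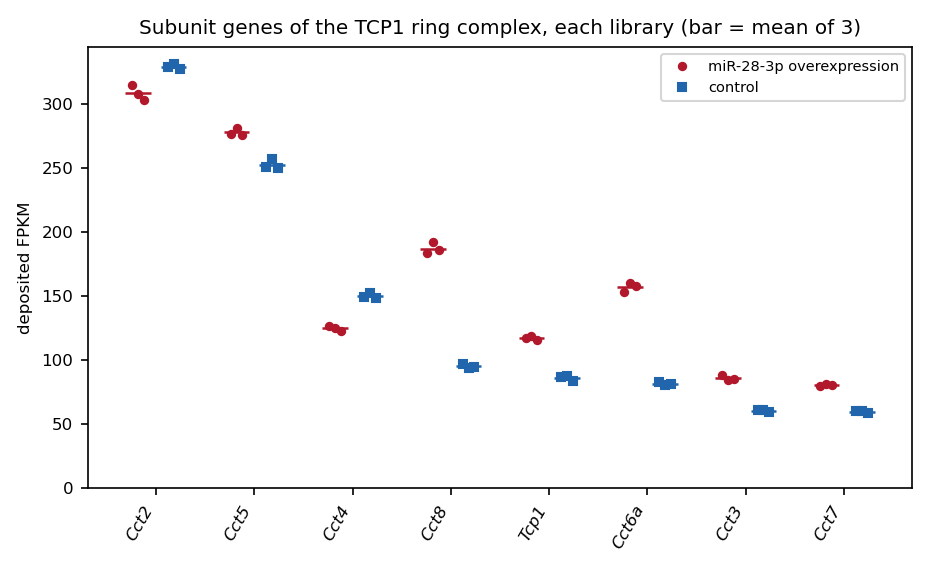
Deposited FPKM of the 8 subunit genes of the TCP1 ring complex in each of 3 miR-28-3p overexpression libraries (circles) and 3 control libraries (squares), with a bar at the mean of each group. Cct8 and Cct6a show the largest gaps upward, and Cct4 and, on this scale, Cct2 lie lower with overexpression.

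J-proteins, which deliver clients to HSP70, went in both directions. Of 37 tested, 19 rose (51.4%) and 12 fell (32.4%), against 42.1% and 43.9% of all tested genes. With upper quartile scaling 15 rose (40.5%) and 18 fell (48.6%), against 33.5% and 53.2%, so the mix of directions lay near the background. The median log2 fold change was 0.22, and -0.01 with upper quartile scaling. In class A, whose members resemble the bacterial DnaJ, 3 of 4 rose (75.0%; 42.1% of all tested genes). Dnaja1 and Dnaja2, the main cytosolic J-proteins of this class, both rose 1.27-fold, with 366, 367 and 364 CPM with overexpression and 283, 295 and 287 CPM in controls for Dnaja2. Dnaja4 rose 1.61-fold, but 44.0% of its exon bases also lie in Wdr61 on the opposite strand. Dnaja3, which acts in mitochondria, was lower at 65.8 ± 5.2 CPM with overexpression and 73.8 ± 2.17 CPM in controls (SD, n = 3 each; edgeR adjusted p = 0.00236), a call that was lost without overexpression replicate 3 (edgeR adjusted p = 0.0908), and with the length trend removed it stood at 0.10 on the log2 scale.

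In class B 4 of 8 tested genes rose and 3 fell, against 42.1% and 43.9% of all tested genes. With upper quartile scaling 2 rose and 4 fell, against 33.5% and 53.2% of all tested genes. Dnajb11, a J-protein of the ER lumen, rose 1.69-fold, with 108, 112 and 114 CPM in the overexpression libraries, against 64.4, 66.9 and 66.3 CPM in the control libraries. Dnajb1, the classic heat-inducible HSP40, and Dnajb6, which holds back protein aggregates and whose promoter is shown above, rose 1.16-fold and 1.17-fold. Dnajb1 turned to -0.01 on the log2 scale with upper quartile scaling and Dnajb6 lost its call there (edgeR adjusted p = 0.941). Dnajb14, with the seed site shown above, rose 1.33-fold but stood at -0.13 with the length trend removed, not called. Dnajb4 had 30.7, 30.0 and 26.5 CPM in the overexpression libraries, against 54.6, 52.5 and 55.3 CPM in the control libraries, and Dnajb2, a J-protein with ubiquitin-binding motifs, had 24.4, 24 and 28 CPM with overexpression and 45.9, 43.8 and 44.1 CPM in controls. Both fell without overlap, with log2 fold changes of -0.90 and -0.80 (edgeR adjusted p = 1.26e-19 and 3.03e-16). Dnajb5 fell to 4.52 ± 0.98 CPM with overexpression and 6.19 ± 1.32 CPM in controls, with overlapping groups and an edgeR adjusted p of 0.0152. It was not called in DESeq2 (adjusted p = 0.084) or without overexpression replicate 3, control replicate 1 or control replicate 3 (edgeR adjusted p = 0.131, 0.106 and 0.0702). The estimate of -0.47 on the log2 scale was nearest to 0, at -0.31, without overexpression replicate 3.

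Class C, a mixed group united by the J domain alone, had 12 of 25 tested genes higher (48.0%) and 8 lower (32.0%), near the 42.1% and 43.9% of all tested genes. With upper quartile scaling 10 were higher and 13 lower, against 33.5% and 53.2% of all tested genes. Dnajc13 (ENSMUSG00000032560, chromosome 9, 104151282 to 104262930), which works on early endosomes, had 209, 203 and 199 CPM in the overexpression libraries, against 77.4, 79.7 and 75.1 CPM in the control libraries, a log2 fold change of 1.39 ± 0.04 (SE; edgeR adjusted p = 5.13e-41). Dnajc27, a Rab-like GTPase with a J domain, had 21.8, 21.9 and 22.3 CPM with overexpression and 10.0, 9.43 and 9.9 CPM in controls. Dnajc11, which helps to shape the mitochondrial cristae, rose 1.8-fold and Dnajc25 1.65-fold. ER members followed, with Dnajc10, a reductase, at 1.64-fold and Dnajc3, which restrains the kinase PERK, at 1.54-fold. Dnajc9, a histone co-chaperone, rose 1.46-fold, Dnajc5, of synaptic and secretory vesicles, 1.44-fold, and Dnajc21, linked to ribosome assembly, 1.18-fold. Dnajc22 and Dnajc16 rose 1.4-fold and 1.28-fold.

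The falls of class C were led by Dnajc4, Dnajc28 and Dnajc17. Dnajc4 (ENSMUSG00000024963, chromosome 19, 6987911 to 6992572) had 6.49, 6.53 and 8.65 CPM in the overexpression libraries, against 26.9, 27.6 and 28.1 CPM in the control libraries, a log2 fold change of -1.92 ± 0.11 (SE; edgeR adjusted p = 7.5e-25). Dnajc28 had 1.15, 1.06 and 1.33 CPM with overexpression and 4.65, 3.3 and 4.7 CPM in controls. Dnajc17, linked to splicing, had 4.47, 6.14 and 6.12 CPM with overexpression and 12.7, 13.7 and 11.6 CPM in controls. In all 3 every overexpression library lay below every control library, as in 43.8% of all tested genes. Dnajc12, a partner of aromatic amino acid hydroxylases, fell 2.02-fold with 12, 28 and 20 counts with overexpression and 48, 38 and 41 in controls. Dnajc30, a mitochondrial protein whose gene shares 26.2% of its exon bases with Bud23 on the opposite strand, fell 1.84-fold, and its call was lost with the length trend removed (edgeR adjusted p = 0.467). Dnajc18, Dnajc7 and Dnajc15 fell 1.33-fold, 1.26-fold and 1.18-fold. Dnajc7 links HSP70 to HSP90 and Dnajc15 belongs to the mitochondrial import motor. Dnajc1, Dnajc8, Dnajc14, Dnajc19 and Dnajc24 were not called.

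Small heat shock proteins hold unfolded clients without ATP. Of 8 genes with such a symbol 4 could be tested, of which 3 were lower, while 43.9% of all tested genes were. One of the 3 is Hspb11, which is a small heat shock protein by symbol only, and without it Hspb1 and Hspb6 were lower and Hspb8 higher. Hspb1 (ENSMUSG00000004951, chromosome 5, 135887919 to 135889563) had only 3, 7 and 1 counts in the overexpression libraries and 19, 17 and 19 counts in the control libraries. That is 0.247 ± 0.201 CPM with overexpression and 1.17 ± 0.046 CPM in controls (SD, n = 3 each) and a log2 fold change of -2.22 ± 0.53 (SE; edgeR adjusted p = 0.000119), and every overexpression library lay below every control library. Hspb11 (ENSMUSG00000063172, chromosome 4, 107253593 to 107279938), which encodes a subunit of the intraflagellar transport complex, had 11.5, 8.97 and 10.0 CPM in the overexpression libraries, against 55.1, 58.2 and 59.7 CPM in the control libraries. Its log2 fold change of -2.51 ± 0.08 (edgeR adjusted p = 9.06e-37) lay within the SE of that of Hspa2, and with the length trend removed Hspb11 stood at -1.87 and Hspa2 at -1.92. Hspb6 had 7.5, 8.05 and 8.59 CPM with overexpression and 13.8, 11.8 and 13.1 CPM in controls, and its call was lost with the length trend removed (edgeR adjusted p = 0.487). Hspb8, which acts with the exchange factor Bag3, rose 1.29-fold, with 88.4, 89.3 and 94 CPM with overexpression and 72.3, 69.2 and 68.5 CPM in controls.

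Of the remaining genes taken by symbol, Hspbp1, which encodes an exchange factor of HSP70, rose 1.37-fold and Hspbap1 was not called. The 9 tested members without a call, among them the ER membrane J-protein gene Dnajb12, had log2 fold changes between -0.25 and 0.18 and adjusted p of 0.069 or more in edgeR. The 15 members too low to test had at most 15 counts in any library. Beside Cct6b, Cct8l1 and Hspa1a they are Dnajb7, Dnajb13, Dnajc5b, Dnajc6, Hspa12a, Hspb2 and Hspb9, with Dnajb3, Dnajb8, Dnajc5g, Hspb3 and Hspb7 at 0 counts in all 6 libraries.

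Shorter genes were lower with overexpression across the whole table. The median of the shortest chaperone genes stood below that of the longest, and its sign depended on the scaling. Split by length into 3 parts, the 22 shortest tested members had a median log2 fold change of 0.09 and the 22 longest 0.39. The shortest and the longest part of all tested genes had -0.46 and 0.37. With upper quartile scaling the medians of the shortest and longest members were -0.14 and 0.16. Across the 67 members the log2 fold change and log2 gene length gave Pearson r = 0.31 and Spearman rho = 0.24, and across all 11809 genes 0.27 and 0.33. Genes of a library share its depth and composition, so these are descriptions. With the length trend removed 44 members were called higher and 15 lower, against 48.1% and 37.5% of all tested genes, and the median of the members, 0.50, stood 0.37 above that of all genes. All 8 tested subunit genes of the TCP1 complex were then called higher, and at least 2-fold rises were called for 18 members, against 17.0% of all tested genes.

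**Figure D5:**
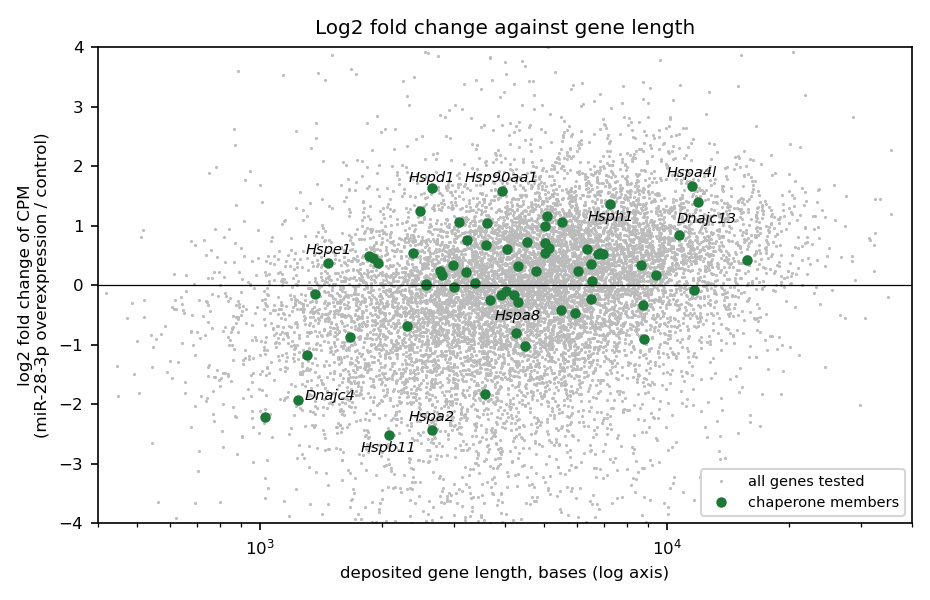
Log2 fold change of CPM, miR-28-3p overexpression over control, against deposited gene length on a log axis. Grey points are all tested genes, of which 278 lie outside the axes, and green points 66 of the 67 tested chaperone genes. Hspd1 and Hsp90aa1 lie above most genes of their length, and Dnajc4, Hspb11 and Hspa2 are among the lowest of the chaperone genes.

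Genes that work with these chaperones were read from a list of 50 heat shock factors, co-chaperones, prefoldin subunits and mitochondrial partners, none of them a member. Of 49 tested, 23 rose (46.9%) and 20 fell (40.8%), close to the 42.1% and 43.9% of all tested genes, and with upper quartile scaling 17 rose and 26 fell. The median log2 fold change was 0.08. Hsf1 and Hsf2, the heat shock factors, rose 1.18-fold and 1.47-fold, to 57.4 ± 7.46 CPM with overexpression and 48.6 ± 2.76 CPM in controls for Hsf1 (SD, n = 3 each). Several HSP90 co-chaperones rose. Stip1, which bridges HSP70 and HSP90, had 526, 538 and 530.1 CPM with overexpression and 324, 326 and 324 CPM in controls. Ppid, a cyclophilin bound to HSP90, rose 1.93-fold and Chordc1 1.77-fold. Tomm70a, the mitochondrial import receptor that docks HSP70 and HSP90, and Hyou1, an HSP110-type protein of the ER, rose 2.01-fold and 2.15-fold.

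Other partners went the opposite way. Cdc37, which brings kinases to HSP90, had 351, 356 and 352 CPM with overexpression and 565, 554 and 564 CPM in controls. Pfdn5, a subunit of prefoldin, which hands actin and tubulin to the TCP1 complex, had 42.2, 40.9 and 42.1 CPM with overexpression and 117, 123 and 119 CPM in controls. Sugt1 and Fkbp8, both HSP90 partners, fell 1.58-fold and 1.53-fold, and Lonp1, a mitochondrial protease, 1.51-fold. These 10 are the 5 genes of smallest p in each direction, and the highest edgeR adjusted p among them was 2.29e-24. Of the ER genes left out of the set, Hspa5 averaged 1844 ± 28.7 CPM with overexpression and 1739 ± 19.4 CPM in controls, Hsp90b1 656 ± 11.2 CPM with overexpression and 321 ± 6.53 CPM in controls and Dnajb9 15.2 ± 2.05 CPM with overexpression and 36.7 ± 1.02 CPM in controls (SD, n = 3 each).

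The authors' deposited table gave the same direction for every member called in both, 56 of the 58 called here. The 2 genes called by edgeR alone were Hsp90ab1 and Dnajb5, with adjusted p of 0.228 and 0.113 in the authors' deposited table.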

How the data were processed

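Per the file headers, the authors deposited raw read counts per gene for each library, and FPKM values per gene and library. The authors' deposited table of their own comparison holds log2 fold changes with adjusted p-values. The submitters' processing notes name HISAT2, HTSeq, DESeq and the build mm9, with no versions. The deposited coordinates of 79 of 82 members are those of GENCODE M21 (GRCm38), which is used here. No source used here gives the strand setting or the handling of shared reads.

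Counts were tested with edgeR 4.0.16 in R 4.3.3 (filterByExpr with a minimum count of 10, TMM, robust quasi-likelihood F test, Benjamini-Hochberg over 11809 genes, threshold 0.05). SE was computed as the absolute log2 fold change over the square root of F. The coefficient of variation between replicates was 2.93%. In a library 3 counts equal 0.188 to 0.216 CPM. Libraries of a group differed by more than sampling noise (chi-square per degree of freedom 1.85 to 2.62), and none was a duplicate. Alternatives were DESeq2 1.42.0, RLE and upper quartile scaling, no filter, a 1.5-fold minimum, a replicate block, removal of a loess trend on gene length, limma 3.58.1 on log2(FPKM + 1) or log2(FPKM + 0.1), and leaving out each library.

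The members and lists were chosen with earlier results of these data known. Named were all TCP1 complex genes, the 10 members of highest FPKM, and up to 5 rises and 5 falls per class with adjusted p under 0.05 and at least 2 CPM. Of the partner list, Hsf1, Hsf2 and the 5 of smallest p in each direction were named. Other members are named to account for the set, and 1 tested member is counted in the totals but not reported here.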

Additional observations from a re-analysis of the deposited data

How the results depend on the processing

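Of the 58 members called, between 55 and 58 kept call and direction under RLE scaling, no filter, the replicate block, DESeq2, limma on either FPKM scale and each left-out library, 52 under upper quartile scaling and 52 with the length trend removed. Against a 1.5-fold minimum 23 did, with 14 higher and 9 lower members, 2762 and 3185 of all genes, and 9 and 4 of the partner list. Members called higher by at least 2-fold, 10 in the analysis reported, numbered 6 under upper quartile scaling, 18 with the length trend removed, 5 on log2(FPKM + 1) and 6 on log2(FPKM + 0.1), and those called lower, 7, numbered 4 on log2(FPKM + 1). In the partner list 11 were lower with the length trend removed. Cct2, at a log2 fold change near 0, stood at -0.23 under upper quartile scaling, -7.8e-06 with the replicate block, -0.0926 on log2(FPKM + 1) and -0.0928 on log2(FPKM + 0.1), and ranged from -0.0060 to 0.018 with 1 library left out, at -0.0012 without control replicate 1. With the length trend removed, Cct4 turned to 0.049, Dnaja3 to 0.10, Dnajb14 to -0.13 and Hsp90ab1 to 0.41. Under upper quartile scaling Dnajb1 turned to -0.0097 and Hspa1b to -0.062. The cause of these turns was not tested. Leaving out 1 library gave 38 to 40 higher and 16 to 19 lower members. Replicate numbers did not pair the samples, since deviations of same-numbered libraries correlated at -0.0048, -0.0031 and -0.031, and with the replicate block 39 members were higher and 19 lower, as without it. Depth limits the genes near or under 1 CPM, such as Hspb1 and Hspa1l.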
